A study of Mus musculus with 16 samples.

Results

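The sarcomere is the contractile unit of the muscle fibre, and most of its proteins exist in a slow and a fast form. The 8 genes described here encode slow-fibre forms and were taken from the deposited expression table by gene symbol: Myh7, Tnnc1, Tnni1, Tnnt1, Myl2, Myl3, Tpm3 and Myoz2. They are 8 of the 23970 gene symbols in the table, and all 8 were among the 11256 symbols that averaged at least 0.5 FPKM and were tested. RNA from quadriceps of 16 male C57BL/6NTac mice aged 16 weeks was sequenced, 1 mouse per library. The mice had been fed for 10 weeks either a control diet (CON, 10% of energy from fat) or a high-fat diet (HFD, 60% of energy from fat). Of each diet group, 4 mice were sampled without a running test (CON-pre and HFD-pre) and 4 other mice were sampled 3 h after a single incremental treadmill test run to exhaustion (CON-post and HFD-post), so the states before and after exercise come from different animals. All 4 groups had been acclimatised to the treadmill on the day before and fasted for 3 h. The post mice had water but no food between the test and sampling. The paper gives the pre groups an equal fasting period and does not say whether it includes those hours. If it does not, the run and the longer time without food cannot be told apart. The sources used here do not state which portion of the quadriceps went into each extraction.

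Skeletal muscle is a mixture of slow, type I fibres and several classes of fast, type II fibres, and each class is built from its own set of myosins, troponins and other sarcomere proteins. Slow fibres contract slowly, use oxidative metabolism and resist fatigue, and fibre type is set by motor nerve activity through calcineurin and NFAT, by Mef2 and Tead factors, and by repressors such as Sox6. The mouse quadriceps is mainly a fast muscle, in which slow fibres are few and lie mostly in its deep portions. Most of the slow forms are shared with the heart ventricle, so they can also mark heart tissue.

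The deposited values are FPKM, fragment counts divided by transcript length and by the mapped fragments of the library, so levels of different genes can be set side by side, while comparisons between libraries also depend on how the rest of the RNA is composed. The depth of the libraries relative to CON-pre replicate 1, as read from the smallest values, was 0.705 to 1.12, and the FPKM of a library summed to 283575 to 329282. The tissue label was checked against fixed marker lists. The fast counterparts of the members were more abundant than the members in every library, with the type IIb myosin Myh4 between 6821 and 9499, and the general muscle gene Ckm, muscle creatine kinase, was between 10052 and 14318. The heart markers Nppa, Nppb and Nkx2-5 were listed at 0 in all 16 libraries, Gata4 was at no more than 0.0303 FPKM, the atrial light chain Myl7 at no more than 0.235 and the cardiac troponin I Tnni3 at no more than 0.291. Other genes of the heart list were detected: the cardiac actin Actc1, which skeletal muscle also expresses, at 56.0 to 219.6 FPKM, Myl4 at up to 5.91, Tnnt2 at up to 4.59 and Myh6 at up to 3.41. The symbols fixed the members and no value entered the rule, but the 8 genes also stand in a table of genes that the study drew from these libraries, so their choice is not independent of these data.

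The members move together between libraries, as described below, and the letters upstream of their starts are therefore shown for the 4 members in which a MEF2, CArG or MCAT motif was found. The sequences are the 250 bases before the annotated start, 5′ to 3′ on the strand of the gene, from RefSeq on GRCm38.p6: Myoz2 at chr3:123034988-123035237 (minus strand), Myl3 at chr9:110763428-110763677 (plus strand), Tnnc1 at chr14:31208062-31208311 (plus strand) and the more upstream of 2 listed starts of Myh7 at chr14:54994627-54994876 (minus strand). Capitals mark matches on either strand to the MEF2 motif, the CArG motif bound by serum response factor, or the MCAT motif CATTCC bound by Tead factors.
Myoz2: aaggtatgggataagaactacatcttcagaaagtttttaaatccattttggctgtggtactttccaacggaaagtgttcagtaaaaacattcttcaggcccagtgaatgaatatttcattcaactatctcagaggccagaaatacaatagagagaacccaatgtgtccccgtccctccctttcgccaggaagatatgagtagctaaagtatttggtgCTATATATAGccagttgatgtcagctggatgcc
Myl3: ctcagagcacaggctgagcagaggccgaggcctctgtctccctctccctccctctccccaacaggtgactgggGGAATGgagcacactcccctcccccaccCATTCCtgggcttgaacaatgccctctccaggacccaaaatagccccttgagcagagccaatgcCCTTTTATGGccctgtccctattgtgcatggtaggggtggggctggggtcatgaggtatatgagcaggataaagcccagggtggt
Tnnc1: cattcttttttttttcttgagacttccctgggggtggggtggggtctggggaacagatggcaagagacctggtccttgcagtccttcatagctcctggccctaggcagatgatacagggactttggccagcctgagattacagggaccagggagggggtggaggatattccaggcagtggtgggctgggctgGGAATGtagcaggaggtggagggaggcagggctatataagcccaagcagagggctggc
Myh7: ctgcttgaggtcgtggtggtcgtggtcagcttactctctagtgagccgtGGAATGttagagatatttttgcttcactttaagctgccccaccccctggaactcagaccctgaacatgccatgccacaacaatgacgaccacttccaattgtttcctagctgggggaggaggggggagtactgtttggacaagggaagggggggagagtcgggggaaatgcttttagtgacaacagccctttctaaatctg

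Myoz2 holds 1 MEF2 match, Myl3 holds 2 MCAT matches and 1 CArG match, and Tnnc1 and Myh7 hold 1 MCAT match each. RefSeq lists 12 starts for the 8 genes. A match to MEF2 was found before 1 of the 12, against 2.92% of the 32851 starts of all genes, and a match to CArG before 1 of the 12, against 1.47%. A match to MCAT was found before 3 of the 12, against 12.6%, and the E-box CANNTG, bound by MyoD and myogenin, before all 12, against 66.2%. The capital stretches do not overlap each other. The matches describe letters only, and binding was not measured.

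The slow myosin heavy chain is the motor of the thick filament in type I fibres. Myh7 was at 12.5, 33.4, 39.7 and 58.1 FPKM in CON-pre replicates 1 to 4, 11.2, 18.2, 35.7 and 17.7 in HFD-pre, 55.6, 11.3, 39.5 and 40.4 in CON-post and 50.3, 18.5, 30.7 and 11.2 in HFD-post. In every group the highest library was 3.19 to 4.92 times the lowest, and the ranges of all 4 groups overlapped. The group means were 35.9 ± 18.8, 20.7 ± 10.5, 36.7 ± 18.5 and 27.7 ± 17.1 FPKM (SD, n = 4) in the same order of groups. Myh7 lies at chr14:54970684-54994626 (GRCm38), next to the heart myosin gene Myh6, which is nearly identical to it in sequence. Myh6 was listed at 0.643 to 3.41 FPKM and had r = 0.92 with the mean of the 8 members over the 16 libraries, and reads of the pair could have been divided between them.

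Troponin is the calcium switch of the thin filament, with a subunit that binds calcium (troponin C, Tnnc1), one that inhibits contraction (troponin I, Tnni1) and one that ties the complex to tropomyosin (troponin T, Tnnt1). Tnnc1 was at 23.0, 52.8, 73.1 and 92.7 FPKM in CON-pre replicates 1 to 4, 18.8, 30.3, 57.9 and 34.1 in HFD-pre, 79.6, 20.3, 71.0 and 66.7 in CON-post and 80.3, 34.0, 43.2 and 19.4 in HFD-post. Tnni1 was at 9.70, 22.0, 35.5 and 38.3 FPKM in CON-pre replicates 1 to 4, 5.89, 11.6, 29.6 and 16.9 in HFD-pre, 35.8, 9.13, 25.0 and 28.3 in CON-post and 45.8, 15.6, 23.2 and 8.28 in HFD-post. Tnnt1 was at 20.9, 52.8, 67.8 and 78.3 FPKM in CON-pre replicates 1 to 4, 18.8, 31.7, 57.6 and 33.3 in HFD-pre, 83.0, 18.6, 63.9 and 61.0 in CON-post and 65.4, 23.5, 44.1 and 21.8 in HFD-post. For all 3 troponin genes the lowest libraries were CON-pre replicate 1, HFD-pre replicate 1, CON-post replicate 2 and HFD-post replicate 4, the same libraries as for Myh7. The highest were CON-pre replicate 4, HFD-pre replicate 3, CON-post replicate 1 and HFD-post replicate 1.

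The light chains stabilise the lever arm of the myosin head. Myl2 encodes the slow regulatory light chain and Myl3 the slow essential light chain, and both are also the forms of the heart ventricle. Myl2 was at 64.0, 171, 163 and 195 FPKM in CON-pre replicates 1 to 4, 56.9, 95.4, 176 and 99.9 in HFD-pre, 220.4, 49.4, 169 and 188 in CON-post and 246, 92.8, 132 and 51.3 in HFD-post. Myl3 was at 48.7, 84.1, 136 and 177 FPKM in CON-pre replicates 1 to 4, 50.6, 55.0, 106 and 82.1 in HFD-pre, 158, 47.4, 131 and 131 in CON-post and 183, 54.2, 106 and 49.1 in HFD-post. These were the most abundant of the 8 members, and both again had their highest and lowest libraries in the places given for the troponins.

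Tropomyosin lies along the thin filament and blocks myosin binding at rest, and Tpm3 encodes the form used in slow fibres. Tpm3 was at 13.1, 19.7, 25.9 and 32.2 FPKM in CON-pre replicates 1 to 4, 10.1, 14.0, 23.1 and 15.9 in HFD-pre, 33.8, 14.0, 26.2 and 22.2 in CON-post and 29.6, 16.3, 18.2 and 12.4 in HFD-post. Tpm3 also encodes non-muscle tropomyosins, which the values per gene do not separate. Calsarcins are proteins of the Z-disc that bind calcineurin, and Myoz2 encodes the one found in slow fibres and in the heart. Myoz2 was at 22.8, 42.2, 54.0 and 48.4 FPKM in CON-pre replicates 1 to 4, 31.0, 33.2, 44.9 and 42.4 in HFD-pre, 71.7, 26.9, 57.1 and 70.4 in CON-post and 86.3, 37.5, 58.2 and 28.7 in HFD-post. Myoz2 was the only member whose highest CON-pre library was replicate 3 and not replicate 4, and its 4 HFD-pre libraries lay closest together, with a highest value 1.45 times the lowest.

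**Figure D1:**
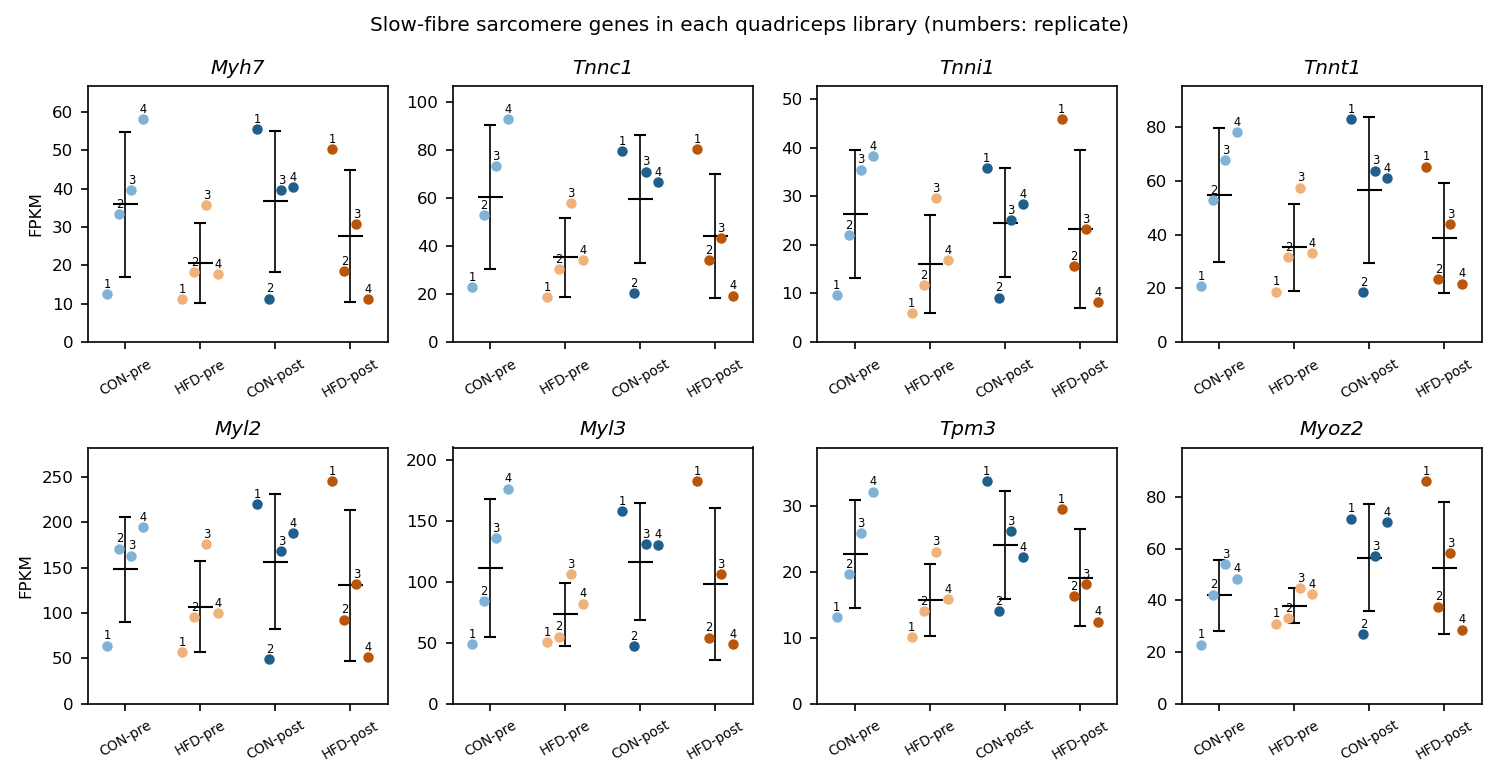
FPKM of the 8 slow-fibre sarcomere genes in each library by group, on linear axes that start at 0; points are libraries marked with their replicate number, and bars give the mean and SD of 4 libraries. In each gene the 4 groups overlap, and replicate 1 of CON-pre, replicate 1 of HFD-pre, replicate 2 of CON-post and replicate 4 of HFD-post are the lowest of their groups.

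Ordered by mean level over the 16 libraries, the members were Myl2 (136 FPKM), Myl3 (99.9), Tnnc1 (49.8), Myoz2 (47.2), Tnnt1 (46.4), Myh7 (30.2), Tnni1 (22.5) and Tpm3 (20.4). Myl2 was above Myl3, Myl3 above Tnnc1, Tnnt1 above Myh7 and Myh7 above Tnni1 in 16 of 16 libraries. Tnnc1 was above Myoz2 in only 7 of 16, Myoz2 above Tnnt1 in 10 of 16 and Tnni1 above Tpm3 in 9 of 16, so these neighbours were not separated.

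The slow forms were a small part of the sarcomere RNA. Myh7 made up 0.119 to 0.616% of the summed FPKM of the 4 adult myosins Myh7, Myh2, Myh1 and Myh4, with a median of 0.323%. Its share in replicates 1 to 4 was 0.124, 0.331, 0.428 and 0.579% in CON-pre, 0.130, 0.197, 0.359 and 0.208% in HFD-pre, 0.525, 0.119, 0.408 and 0.455% in CON-post and 0.616, 0.213, 0.315 and 0.125% in HFD-post. The type IIb myosin Myh4 made up 83.5 to 93.1%, the type IIx myosin Myh1 4.61 to 8.19% and the type IIa myosin Myh2 2.13 to 7.73%. The myosin share of Myh7 followed its FPKM, with CON-pre replicate 1, HFD-pre replicate 1, CON-post replicate 2 and HFD-post replicate 4 again the lowest of their groups.

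The 8 members varied together between libraries of the same group. Each of the 8 was lowest in CON-pre replicate 1, in HFD-pre replicate 1, in CON-post replicate 2 and in HFD-post replicate 4 within the group, and each was highest in HFD-pre replicate 3, CON-post replicate 1 and HFD-post replicate 1, while 7 of the 8 were highest in CON-pre replicate 4. Between the lowest and the highest library the FPKM differed 2.37- to 4.66-fold in CON-pre, 1.45- to 5.03-fold in HFD-pre, 2.41- to 4.92-fold in CON-post and 2.38- to 5.53-fold in HFD-post. Because the tissue was sequenced in bulk, fewer slow fibres in a sample and less of these RNAs in each slow fibre cannot be told apart.

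**Figure D2:**
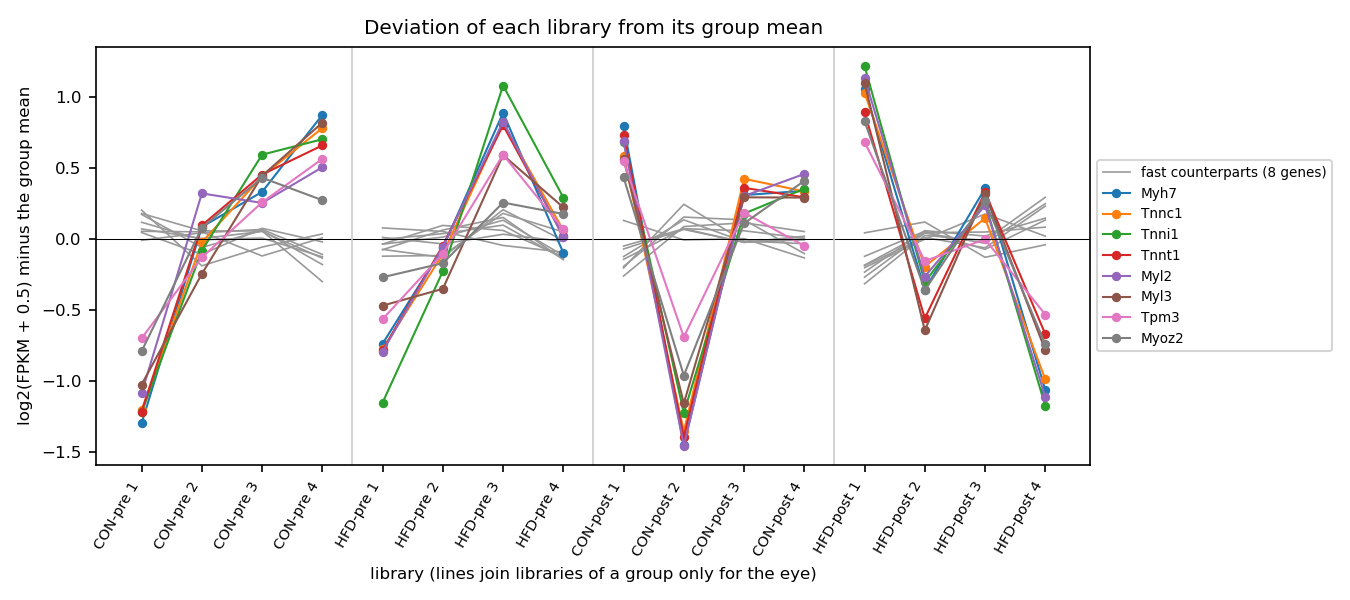
Deviation of log2(FPKM + 0.5) from the mean of the library's own group, for the 8 members (colours) and their 8 fast counterparts (grey), in 16 libraries. Apart from Myoz2 in HFD-pre, every member spans more than 1 log2 unit in each group, and the members move as a bundle, while the fast counterparts stay near 0.

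The spread within groups was large compared with other genes. The SD of log2(FPKM + 0.5) between libraries of a group, pooled over the 4 groups, was 0.921 for Tnni1, 0.885 for Myh7, 0.841 for Myl2, 0.824 for Tnnc1, 0.805 for Tnnt1, 0.759 for Myl3, 0.565 for Myoz2 and 0.514 for Tpm3. The median of the 8 was 0.814, and the median of all 11256 genes tested was 0.176. The members stood at the 97.2 (Tpm3) to 99.2 (Tnni1) percentile of this SD among all genes tested, and at the 98.2 to 99.6 percentile among the 3084 genes whose mean lay between 10 and 200 FPKM, whose median was 0.135. The fast forms of the same 8 proteins had SDs of 0.0921 (Myoz1) to 0.191 (Mylpf), with Myh4 at 0.123. The spread was wide in all 4 groups, for Myh7 0.926 in CON-pre, 0.671 in HFD-pre, 0.992 in CON-post and 0.915 in HFD-post.

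**Figure D3:**
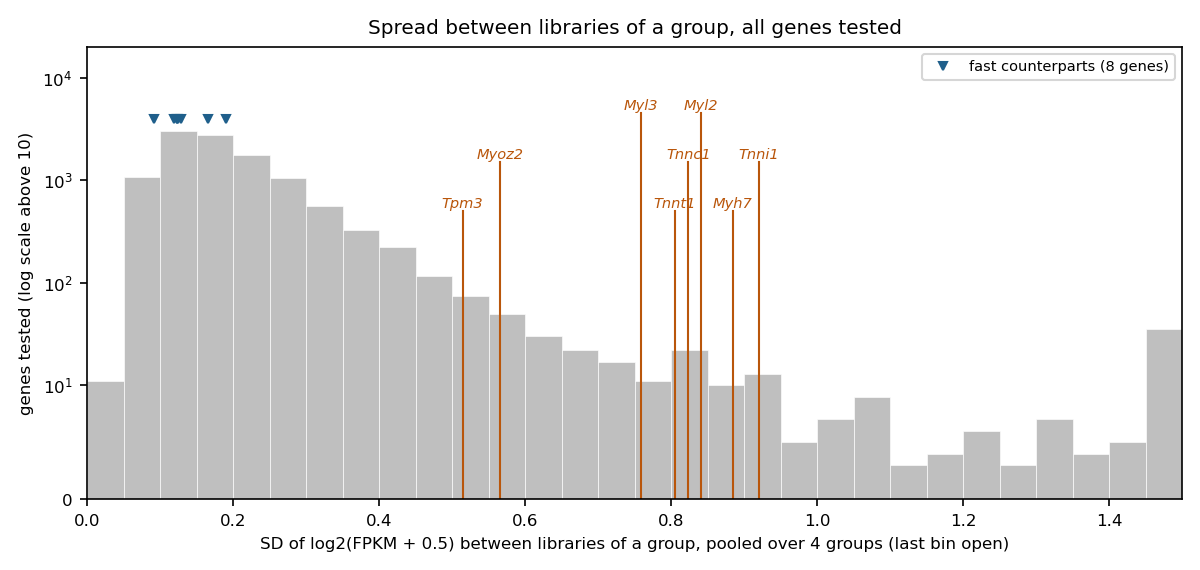
Number of genes tested (grey bars, axis logarithmic above 10) by the SD of log2(FPKM + 0.5) between libraries of a group, pooled over 4 groups. Orange lines mark the 8 members, between 0.514 and 0.921, and blue triangles their fast counterparts, all below 0.2.

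After removal of the group means, the 28 pairs of members had Pearson r of 0.88 (Tpm3 and Myoz2) to 0.99 (Myh7 and Tnnc1), with a median of 0.96, and 96.2% of the scaled variance of the 8 lay along 1 axis. Myh7 was set against each of the 7 other members in permutation tests within groups (100000 permutations, two-sided, 7 relations). Pearson r was 0.99 with Tnnc1, 0.99 with Tnnt1, 0.98 with Myl2, 0.97 with Tnni1, 0.96 with Tpm3, 0.96 with Myl3 and 0.94 with Myoz2, and Spearman rho was 0.90 (Myoz2) to 0.97 (Myl3). The permutation p of r was 1e-05 to 0.00015 and the adjusted p 2.8e-05 to 0.00015, where 1e-05 is the smallest p that these permutations can give. For rho the permutation p was 1e-05 to 0.00011 and the adjusted p 7e-05 to 0.00011. Without CON-post replicate 2 and CON-pre replicate 1, the libraries farthest from the median of Myh7, r was still 0.89 (Myoz2) to 0.98 (Tnnc1). The labels name no sequencing batch, so no value within batches is given.

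The deviations of Myh7 were also compared with 14 other measures of the same libraries. With relative depth, r was 0.07 (permutation p = 0.822, adjusted p = 0.885, rho = 0.15, permutation p = 0.612, adjusted p = 0.789). With the summed FPKM of the 6 macrophage markers r was -0.84 (permutation p = 0.00087, adjusted p = 0.0122, rho = -0.86, permutation p = 0.00033, adjusted p = 0.00462), and without the 2 libraries named above it was -0.79. The 6 markers found in the table, Emr1, Cd68, Csf1r, Cd163, Mrc1 and Lyz2, summed to 63.9 to 111 FPKM in CON-pre, 59.2 to 77.3 in HFD-pre, 51.7 to 126 in CON-post and 47.2 to 95.3 in HFD-post, none was at 0, and 6 of 6 had a negative r with the mean of the members (-0.81 to -0.55, beside a median of -0.20 over all genes that are no member). With Myh2, the myosin of oxidative type IIa fibres, r was 0.73 (permutation p = 0.00669, adjusted p = 0.0468, rho = 0.72, permutation p = 0.00699, adjusted p = 0.0489) and without the 2 libraries 0.63. For the other 11 measures the adjusted p of r was 0.0511 or higher, with r = -0.69 for the FPKM sum. The summed general muscle markers had r = -0.71 (permutation p = 0.0112, adjusted p = 0.0511) and rho = -0.71 (permutation p = 0.0106, adjusted p = 0.0494), and r was -0.51 without the 2 libraries. The part of these measures in the spread of the members was not tested.

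In the resting state, the members were lower in HFD-pre than in CON-pre by a median of 0.54 on the log2 scale, but none passed the test. The question was whether slow-fibre RNA differs between the diets. All 8 log2 fold changes were below 0 (7 of 8 when libraries were weighted by their residual spread, with Myoz2 at 0.018), which was true of 60.3% of all genes tested, and the median of all genes was -0.03. In the fit across all genes (limma on log2(FPKM + 0.5), Benjamini-Hochberg adjustment), 0 of 8 members had an adjusted p under 0.05 (background 0.346% of genes), 0 of 8 an unadjusted p under 0.05 (background 8.25%) and 0 of 8 had groups that did not overlap (background 5.62%). The difference of Myh7 on the log2 scale was -0.71 (standard error 0.54, limma adjusted p = 0.806) with a 95% interval of -1.86 to 0.44, which is 0.275 to 1.36 times the CON-pre level. The inhibitory troponin Tnni1 had the largest difference, -0.74 (standard error 0.56, limma adjusted p = 0.804), and Tpm3 the smallest p, with -0.50 (standard error 0.32, limma adjusted p = 0.747). Myoz2 was at -0.09 (standard error 0.35, limma adjusted p = 0.983). The standard errors of the members, 0.32 to 0.56, were larger than the median of all genes, 0.12, so differences of the size seen could not be separated from the spread between mice. The median of the members was -0.92 without CON-pre replicate 1, the lowest of its group, and -0.33 without HFD-pre replicate 1. With a library left out, Myh7 ran from -1.14 to -0.42, Tnni1 from -1.15 to -0.36 and Tpm3 from -0.73 to -0.31.

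After exercise the members were again lower on the high-fat diet, by a median of 0.33 in HFD-post against CON-post, and again none passed the test. All 8 were below 0, as were 48.7% of all genes, whose median was 0.004. Of the 8 members, 0 had an adjusted p under 0.05 (background 0.151%), 0 an unadjusted p under 0.05 (background 6.29%) and 0 were without overlap (background 3.16%). The largest difference was that of Tnnt1, -0.50 (standard error 0.49, limma adjusted p = 0.971), and the interval of Myh7 ran from -1.56 to 0.74 around -0.41. The median of the members was -0.74 without CON-post replicate 2 and -0.06 without HFD-post replicate 4, each the lowest library of its group, and Tnni1, Myl2 and Myoz2 were above 0 without HFD-post replicate 4 (0.21, 0.081 and 0.12).

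Averaged over both exercise states, 8 CON libraries against 8 HFD libraries, the median log2 fold change of the members was -0.44 and that of all genes -0.02. All 8 members were below 0, against 56.6% of all genes, 0 of 8 had an adjusted p under 0.05 (background 0.959%) and 0 of 8 an unadjusted p under 0.05 (background 10.4%). Tpm3 came closest with -0.41 (standard error 0.22, limma adjusted p = 0.568) and an unadjusted p of 0.0850. Myh7 was at -0.56 (standard error 0.38, limma adjusted p = 0.670), Tnnc1 at -0.57 (standard error 0.36, limma adjusted p = 0.630) and Myoz2 at -0.11 (standard error 0.25, limma adjusted p = 0.937). The 8 genes share their libraries and move together, so the common sign of the 8 is not 8 separate observations.

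The exercise comparisons ask what differs 3 h after a single run to exhaustion. In CON-post against CON-pre the members had no common direction: 5 were above 0, as were 48.3% of all genes, and 3 below, with a median of 0.01, and with upper-quartile or quantile scaling 3 were above 0 and 5 below (8 above 0 with weighted libraries). In this comparison 0 of 8 had an adjusted p under 0.05 (background 1.11%), 0 an unadjusted p under 0.05 (background 11.1%) and 0 were without overlap (background 5.82%). Myh7 was at 0.02 (standard error 0.54, limma adjusted p = 0.997) with an interval of -1.13 to 1.17, and Myoz2 at 0.40 (standard error 0.35, limma adjusted p = 0.734), which ran from 0.14 to 0.72 with a library left out. The median turned to -0.38 without CON-pre replicate 1 and was 0.48 without CON-post replicate 2, the lowest library of each group.

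In HFD-post against HFD-pre all 8 members were above 0 (7 of 8 with weighted libraries, where Tnnt1 was at -0.024), against 59.3% of all genes, with a median of 0.27, and none passed the test. The counts were 0 of 8 at an adjusted p under 0.05 (background 0.542%), 0 at an unadjusted p under 0.05 (background 11.7%) and 0 without overlap (background 6.81%). Tnni1 was at 0.48 (standard error 0.56, limma adjusted p = 0.788), Myoz2 at 0.36 (standard error 0.35, limma adjusted p = 0.735) and Tnnt1 at 0.09 (standard error 0.49, limma adjusted p = 0.966). Without HFD-post replicate 1, the highest library of its group, the median of the members was -0.06. With a library left out, Tnni1 ran from 0.074 to 0.87 and Myoz2 from 0.085 to 0.61.

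Averaged over the diets, the 8 members were above 0 after exercise (6 of 8 with quantile normalization) in the limma fit, against 53.7% of all genes, with a median of 0.17, and without CON-pre replicate 1 the median was -0.02. Of these, 0 had an adjusted p under 0.05 (background 3.86%) and 0 an unadjusted p under 0.05 (background 18.5%). Myoz2 had the largest value, 0.38 (standard error 0.25, limma adjusted p = 0.438), and its adjusted p was 0.203 to 0.662 over the alternatives. The interaction of diet and exercise, which asks whether the response to exercise differed between diets, gave 0.18 as the median of the members, which was -0.19 without CON-post replicate 2 and 0.53 without CON-pre replicate 1. It called 0 of 8 members and 0% of all genes at an adjusted p under 0.05, and 0 of 8 against 3.16% at an unadjusted p under 0.05, which is 356 genes. Exact two-sided permutation tests of single members between pairs of groups gave p of 0.229 to 1, where the smallest p that 4 against 4 allows is 0.0286.

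**Figure D4:**
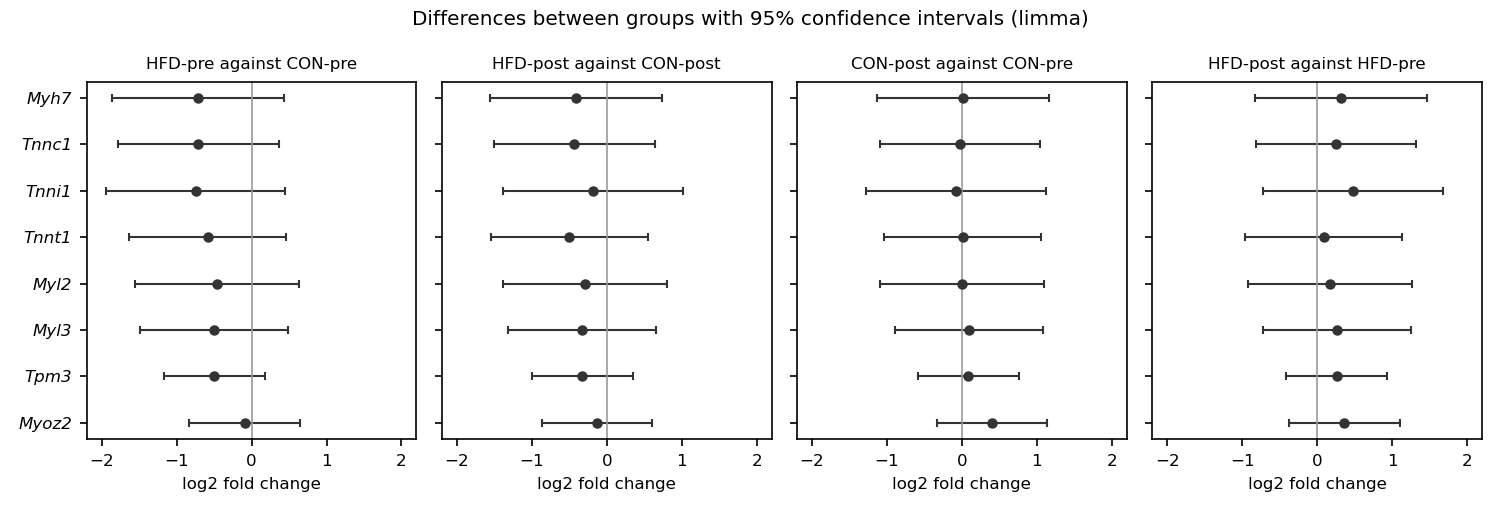
Log2 fold changes of the 8 members with 95% confidence intervals from limma, in the diet comparison before and after exercise and the exercise comparison on each diet. Every interval crosses 0, and the intervals of Tpm3 and Myoz2 are the narrowest.

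Within groups, the log2 ratio of each slow form to the fast form of the same protein varied about as widely as the slow form. Its pooled SD was 0.592 (Tpm3 to Tpm1) to 0.981 (Myl2 to Mylpf). The fast form exceeded the slow one 136- to 764-fold for Myh4 over Myh7, 89.2- to 556-fold for Tnnc2 over Tnnc1, 152- to 1149-fold for Tnni2 over Tnni1 and 157- to 765-fold for Tnnt3 over Tnnt1. The factor was 25.8 to 193 for Mylpf over Myl2, 18.5 to 100.3 for Myl1 over Myl3, 278 to 1102 for Tpm1 over Tpm3 and 12.3 to 58.1 for Myoz1 over Myoz2. Tpm1 is also used in slow fibres and in the heart, so its pair is the least specific. On the log2 scale the median difference of the 8 ratios was -0.40 in HFD-pre against CON-pre, -0.24 in HFD-post against CON-post, 0.25 in CON-post against CON-pre and 0.40 in HFD-post against HFD-pre. In CON-post against CON-pre 7 of 8 ratios were higher, while the median of the members alone was 0.01. In each of these comparisons the groups overlapped for 8 of 8 ratios, and a ratio within a library does not show which of its genes differs.

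The members did not all vary by the same amount between libraries, and their differences from the other members were widest in Tpm3. With the mean log2 value of the 8 members taken out of each library, the pooled SD within groups fell to 0.128 for Tnnc1, 0.154 for Tnnt1, 0.187 for Myh7, 0.192 for Myl2 and 0.195 for Myl3, and was 0.257 for Tnni1, 0.299 for Myoz2 and 0.322 for Tpm3. Relative to the other members, Myoz2 was at -0.26 ± 0.31 in CON-pre, 0.25 ± 0.42 in HFD-pre, 0.13 ± 0.24 in CON-post and 0.35 ± 0.14 in HFD-post (log2 difference, SD, n = 4). Its CON-pre libraries overlapped those of HFD-pre and of CON-post. These values are a description, since the differences of the 8 members in a library add up to a fixed sum.

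Other genes tied to slow fibres were followed as a list of 16 that are no members, of which 15 passed the filter and Myh7b did not. Of these 15, 14 had a positive r with the mean of the members over the 16 libraries, with a median of 0.64, beside -0.20 for all genes tested that are no member, of which 3319 of 11248 were above 0. The exception was Car3, a carbonic anhydrase of slow fibres that adipocytes also make, with -0.34. Atp2a2, the slow calcium pump of the sarcoplasmic reticulum, was closest, with r = 0.97. Atp2a2 was at 20.1, 34.5, 47.9 and 55.4 FPKM in CON-pre replicates 1 to 4, 25.8, 25.7, 38.6 and 31.7 in HFD-pre, 53.3, 22.1, 47.0 and 43.1 in CON-post and 60.2, 31.5, 38.8 and 20.3 in HFD-post. It was lowest in CON-pre replicate 1, CON-post replicate 2 and HFD-post replicate 4, as the members were, while in HFD-pre replicates 1 and 2 were nearly level. The r of Sln, Casq2 and Actn2, which encode sarcolipin, calsequestrin 2 and actinin 2, was 0.75, 0.77 and 0.70, that of Mybpc1, slow myosin-binding protein C, 0.64 and that of myoglobin (Mb) 0.45, while Pln (phospholamban) and Csrp3 (muscle LIM protein) were near 0 with 0.04 and 0.07. The r of the remaining list members was 0.64 for Ankrd2, 0.49 for Myl6b, 0.56 for Pdlim1, 0.83 for Myom3, 0.80 for Smtnl1 and 0.92 for Myh6, which is also in the heart list and whose reads could come from Myh7.

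In the diet comparisons the median of the 15 genes lay above 0 while the members lay below it, also with upper-quartile or quantile scaling. The median log2 fold change of the list was 0.13 in HFD-pre against CON-pre, with 11 above and 4 below 0 and 0 called. The 4 below 0 were Atp2a2 (-0.29), Myh6 (-0.55), Sln (-0.25) and Myl6b (-0.47), of which Atp2a2 and Myh6 are the genes of the list with the highest r with the members. The median was 0.08 in HFD-post against CON-post, with 9 above and 6 below and 0 called. Averaged over the diets, 3 of the 15 rose after exercise and 0 fell, beside 3.86% of all genes called in either direction. They were Csrp3, which rose by 0.71 (standard error 0.17, limma adjusted p = 0.0307) on the log2 scale, Ankrd2, a stretch-responsive protein of the I-band, by 0.54 (standard error 0.12, limma adjusted p = 0.0232), and Actn2 by 0.40 (standard error 0.09, limma adjusted p = 0.0278). Csrp3 was at 43.1, 86.7, 53.1 and 64.3 FPKM in CON-pre replicates 1 to 4, 80.4, 66.3, 65.9 and 159.8 in HFD-pre, 109, 109, 136 and 90.7 in CON-post and 109.9, 133, 139 and 125 in HFD-post. Its CON-post libraries were all above the CON-pre libraries, while HFD-pre replicate 4 was above every HFD-post library. In the exercise comparisons of a single diet these 3 genes had adjusted p of 0.0572 or higher (limma). The averaged call was lost in 12 of 25 alternatives for Csrp3, 9 for Actn2 and 4 for Ankrd2, with adjusted p up to 0.0705.

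Of the 18 fast-fibre genes, 16 had a negative r with the mean of the members, with a median of -0.38, beside 7929 of all 11248 genes that are no member, and Myh2 was the main exception with 0.79. In CON-post against CON-pre 1 of 18 fell (background 1.11% called), Myl1, the fast essential light chain and counterpart of Myl3, from 4649.9 ± 293 to 3567 ± 468 FPKM (SD, n = 4), which is -0.39 (standard error 0.09, limma adjusted p = 0.0397) on the log2 scale. This call was lost in 10 of 18 alternatives, among them quantile normalization, which by construction gives the top-ranked genes the same values in every library. With quantile normalization 2 other fast-fibre genes were called lower. In HFD-post against HFD-pre 0 of 18 were called (background 0.542%), and 1 was called lower with upper-quartile or quantile scaling. Averaged over the diets 3 of 18 fell after exercise, beside 3.86% of all genes called, Myl1 with -0.31 (standard error 0.06, limma adjusted p = 0.00948), Casq1 (calsequestrin 1) with -0.32 (standard error 0.06, limma adjusted p = 0.00546) and Myoz3 (fast calsarcin) with -0.23 (standard error 0.05, limma adjusted p = 0.0158), and 0 rose. Casq1 and Myoz3 were called in all 25 alternatives and Myl1 in 23. With upper-quartile scaling 5 of the 18 were called lower, and with quantile normalization 2. In the diet comparisons 0 of 18 were called (backgrounds 0.346% before and 0.151% after exercise). At an unadjusted p under 0.05 were 6 before exercise (background 8.25%) and 0 after it (background 6.29%). Of the 18, 14 were below 0 before exercise (median -0.17) and 16 after it (median -0.07), beside 60.3% and 48.7% of all genes. With quantile normalization 10 and 7 were below 0. All 7 general muscle markers were below 0 in both comparisons, and 6 and 4 of them with quantile normalization.

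The regulators of the slow-fibre program were a list of 28, of which 27 passed the filter. Ppargc1a, the coactivator PGC-1α, was at 6.28, 6.57, 6.42 and 7.11 FPKM in CON-pre replicates 1 to 4, 4.90, 4.87, 4.84 and 4.18 in HFD-pre, 35.1, 18.8, 34.8 and 24.6 in CON-post and 14.5, 25.1, 26.5 and 23.0 in HFD-post. Its groups before and after exercise did not overlap on either diet, and it rose by 1.98 (standard error 0.19, limma adjusted p = 4.38e-05) on the log2 scale in CON and by 2.10 (standard error 0.19, limma adjusted p = 2.87e-05) in HFD. Vgll2, a cofactor of Tead factors, was the other regulator that rose on both diets, by 0.94 (standard error 0.18, limma adjusted p = 0.0119) in CON and 0.98 (standard error 0.18, limma adjusted p = 0.0221) in HFD. The call of Vgll2 was lost in 7 of 18 alternatives in HFD (adjusted p up to 0.0798) and in 1 in CON (0.143). Averaged over the diets 6 of 27 regulators were called, beside 3.86% of all genes. Of these 4 rose, Ppargc1a and Vgll2 with Hdac5 (0.28) and Nfatc1 (0.33), and 2 fell, Mef2c (-0.20) and Six4 (-0.32). The call was lost in 3 of 25 alternatives for Nfatc1 and, without CON-pre replicate 1, for Mef2c and Six4 (limma adjusted p up to 0.0534). With upper-quartile or quantile scaling 4 were called higher and 3 lower. In the diet comparisons 0 of 27 were called, with 2 at an unadjusted p under 0.05 before exercise and 2 after it, near the backgrounds of 8.25% and 6.29%. The groups did not overlap for 3 of 27 before exercise, Ppargc1a with -0.45 (standard error 0.19, limma adjusted p = 0.520), Ppard and Esrrg (background 5.62%), and for 2 after it, Hdac4 and Nfatc2 (background 3.16%). Within groups, 18 of 27 regulators had a negative r with the members, close to the share of all genes given above, and 9 a positive one, the highest being Myog (myogenin) with 0.69 and Esrrg, an oestrogen-related receptor of oxidative fibres, with 0.69, and Ppargc1a had 0.13.

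Among the 5262 other genes that averaged 5 FPKM or more, those whose group-centred values were most like the mean of the members over the 16 libraries included Atp2a2 (0.97), Lmod2 (0.89), Myom3 (0.83), Idh2 (0.81), Dbt (0.81), Smtnl1 (0.80), Nnt (0.80), Myh2 (0.79) and Slc12a2 (0.79), each with its Pearson r. Of the 5262, 6 (0.114%) had an r over 0.8, led by Atp2a2. Lmod2 encodes leiomodin 2, which nucleates actin, Myom3 is an M-band protein, Idh2 and Nnt are mitochondrial enzymes that make NADPH, and Dbt is a subunit of the branched-chain keto acid dehydrogenase. The SD of log2 values within groups was 0.550 for Atp2a2, 0.379 for Idh2 and 0.326 for Lmod2. The 5 most opposite genes were Rpn2 (-0.90), Rtn3 (-0.89), the cytoskeletal actin Actb (-0.89), Lgals3bp (-0.88) and Cisd3 (-0.88), and 31 genes had an r under -0.8. The points share library scaling, and the correlations are descriptions without a test.

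**Figure D5:**
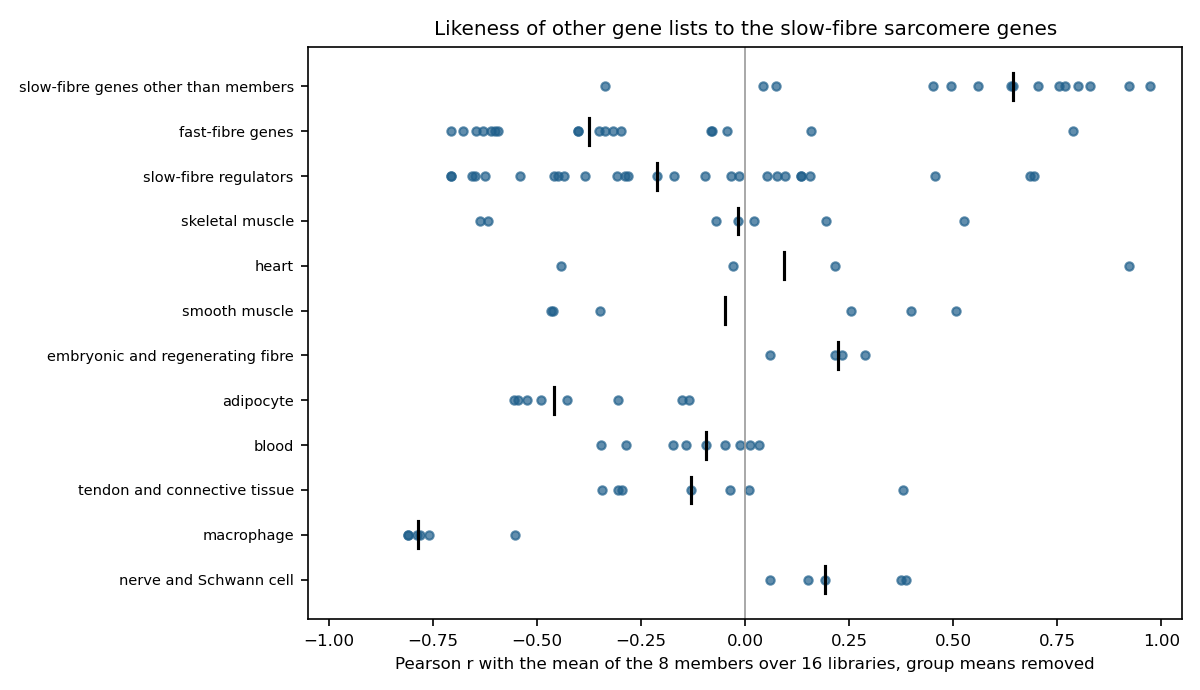
Pearson r of single genes (points) with the mean of the 8 members over 16 libraries, group means removed, for 12 fixed gene lists; black ticks are list medians. The slow-fibre list lies mostly to the right (median 0.64), the macrophage list to the left (median -0.79), and the heart list has a single high point, Myh6.

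Of the other cell type lists, all 8 adipocyte markers had a negative r with the members, which was the usual sign over all genes (-0.55 to -0.14), and the lists for blood (-0.35 to 0.03), tendon and connective tissue (-0.34 to 0.38), smooth muscle (-0.47 to 0.51), nerve and Schwann cells (0.06 to 0.39) and embryonic or regenerating fibres (0.06 to 0.29) ranged as given. The adipocyte markers summed to 379 to 487 FPKM in CON-pre, 332 to 425 in HFD-pre, 385 to 574 in CON-post and 349 to 675 in HFD-post, and none was at 0. Of the genes of these lists, those called in the diet comparisons were Lep, the hormone leptin, higher on HFD by 2.34 (standard error 0.41, limma adjusted p = 0.0138) before and 2.74 (standard error 0.41, limma adjusted p = 0.00893) after exercise, and Cfd, the complement factor adipsin, lower with -1.97 (standard error 0.27, limma adjusted p = 0.00440) and -1.58 (standard error 0.27, limma adjusted p = 0.0253). The call of Lep was lost in 4 of 18 alternatives before exercise and 2 after it (adjusted p up to 0.109), and that of Cfd in 7 after it (up to 0.111). In the exercise effect averaged over the diets, 2 of the 7 general muscle markers were called, Des (0.23) and Myf6 (0.42), beside 3.86% of all genes. Tagln (0.43) of the smooth muscle list and Prx (0.39) of the nerve and Schwann cell list were also called. Each of these was higher after exercise. The call was lost in 14 of 25 alternatives for Des, 4 for Prx and 1 for Myf6 (quantile normalization). Their part in the values of the members was not tested.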

How the data were processed

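Quadriceps mRNA of 16 mice was sequenced by the study (TruSeq stranded libraries, Illumina HiSeq), and the authors trimmed reads, checked them with FastQC, aligned them with TopHat and computed FPKM per gene with Cufflinks. The notes and methods name mm9, but the gene positions in the study's own gene table overlap the 8 members on GRCm38 (8 of 8) and not on mm9 (0 of 8). The deposited FPKM table has 24487 entries, of which 27 named by a number (0.0771% of FPKM) were left out and 260 symbols in several entries were summed. The filter kept genes that averaged 0.5 FPKM or more, which favours no group. Values were tested as log2(FPKM + 0.5), which understates changes of low genes, with limma 3.58.1 (R 4.3.3, mean-variance trend, 1 fit of 4 groups, n = 4 each) and Benjamini-Hochberg adjustment over 11256 genes, called at an adjusted p under 0.05. FPKM keeps no read counts, so the depth is known only relative to 1 library, and intervals cover the spread between mice. Correlations used values with group means removed and permutations within groups (Python 3.11.15, scipy 1.17.1). Relative depth was taken from the smallest FPKM steps. Scripts were tested on simulated data. Named genes were the 8 members, their fast counterparts, the genes of the slow-fibre list, list genes past the threshold and the 10 most and 5 least similar genes at 5 FPKM or more, of which 1 is not reported here. Values of single regulators or markers beyond these (Ckm, Actc1, Myl4, Tnnt2, Gata4, Myl7, Tnni3, Nppa, Nppb, Nkx2-5, Myog, Esrrg, Ppard, Hdac4, Nfatc2) were chosen after they were seen. Members, lists and tests were chosen with earlier results of these data known. Alternatives changed the pseudocount, filter, scaling, variance trend, library weights, threshold, libraries and groups in the fit, or added the replicate number as a block. Promoter sequences are from RefSeq (GRCm38.p6), in which all 8 members were found.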

Additional observations from a re-analysis of the deposited data

How the results depend on the processing

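No member passed an adjusted p of 0.05 in any of 1232 alternative values of 56 member results (lowest adjusted p 0.203, limma), and 104 of these values changed sign. The 1232 include the main value of each of the 56 results, listed again at the looser threshold of 0.1. With weighted libraries Myoz2 turned to 0.018 in HFD-pre against CON-pre, Tnnc1, Tnni1 and Myl2 turned to 0.21, 0.10 and 0.22 in CON-post against CON-pre, and Tnnt1 to -0.024 in HFD-post against HFD-pre, and the interaction turned to -0.072 for Myh7, -0.089 for Tnnc1, -0.25 for Tnnt1, -0.19 for Myl2, -0.12 for Myl3 and -0.016 for Tpm3. With quantile normalization the averaged exercise effect turned to -0.012 for Tnnt1 and -0.0021 for Myl2. In CON-post against CON-pre, Myh7 and Tnnt1 turned to -0.010 and -0.018 with upper-quartile scaling and to -0.019 and -0.044 with quantile normalization. With each library left out in turn, the log2 fold change ran from -0.35 to 0.054 for Myoz2 in HFD-pre against CON-pre and from -0.27 to 0.014 in the averaged diet effect. In HFD-post against CON-post it ran from -0.59 to 0.21 for Tnni1, -0.78 to 0.081 for Myl2 and -0.45 to 0.12 for Myoz2. In CON-post against CON-pre it ran from -0.42 to 0.50 for Myh7, -0.43 to 0.43 for Tnnc1, -0.49 to 0.33 for Tnni1, -0.40 to 0.47 for Tnnt1, -0.37 to 0.48 for Myl2, -0.25 to 0.48 for Myl3, -0.15 to 0.32 for Tpm3 and 0.14 to 0.72 for Myoz2. In HFD-post against HFD-pre it ran from -0.032 to 0.68 for Myh7, -0.093 to 0.58 for Tnnc1, -0.21 to 0.36 for Tnnt1, -0.21 to 0.54 for Myl2 and -0.095 to 0.53 for Myl3. In the interaction it ran from -0.18 to 0.74 for Myh7, -0.18 to 0.68 for Tnnc1, -0.38 to 0.49 for Tnnt1, -0.31 to 0.54 for Myl2, -0.21 to 0.52 for Myl3, -0.057 to 0.41 for Tpm3 and -0.36 to 0.23 for Myoz2, and in the averaged exercise effect from -0.047 to 0.41 for Myh7, -0.088 to 0.34 for Tnnc1, -0.0021 to 0.41 for Tnni1, -0.15 to 0.28 for Tnnt1, -0.11 to 0.33 for Myl2 and -0.00029 to 0.38 for Myl3. The median within-group SD of the members stayed between 0.702 and 0.850 with a library left out. The number of genes called went from 39 to 63 with weighted libraries and 62 at an adjusted p under 0.1 in HFD-pre against CON-pre, from 17 to 2 with only the groups compared and 30 at 0.1 in HFD-post against CON-post, from 125 to 72 and 208 likewise in CON-post against CON-pre, from 61 to 37 without a filter and 93 at 0.1 in HFD-post against HFD-pre, from 108 to 178 at 0.1 in the averaged diet effect and from 435 to 779 at 0.1 in the averaged exercise effect. With a library left out the counts were 21 to 37, 5 to 16, 88 to 190 and 21 to 65 in these comparisons of groups, 0 to 1 in the interaction, and 246 to 565 in the averaged exercise effect. Higher and lower calls were 109 and 16 in CON-post against CON-pre (102 and 38 with upper-quartile scaling, 113 and 41 with quantile normalization), 55 and 6 in HFD-post against HFD-pre (40 and 20 with either), 332 and 103 in the averaged exercise effect (262 and 275, and 289 and 244), 14 and 3 in HFD-post against CON-post (10 and 4 with quantile normalization) and 27 and 12 in HFD-pre against CON-pre (36 and 27 with weighted libraries). The replicate numbers were not taken to pair the mice: same-numbered libraries had r of -0.22 to 0.21, and 6 of 16 correlated best with their own number. With the replicate number as a block 32, 17, 116, 42, 0, 87 and 328 genes were called in place of 39, 17, 125, 61, 0, 108 and 435, and no member was. The cause of these changes was not tested. With 4 mice per group and the spread of these genes, only differences larger than those seen could be separated.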
